A study of Mus musculus with 2 samples.

Results

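Interferon-inducible GTPases of 2 families, the immunity-related GTPases (IRG) and the guanylate-binding proteins (GBP), were followed across the vascular and stromal cells of mouse hearts. The 10 genes, of 31053 measured, were Iigp1, Igtp, Irgm1, Irgm2 and Tgtp2 of the IRG family and Gbp2, Gbp3, Gbp4, Gbp6 and Gbp7 of the GBP family. They were chosen by the difference between the libraries, which was known from earlier work on the same counts, so values of that difference describe them and support nothing further. The values used for that choice were their UMI counts in each library. One library came from db/db mice given 1% salt and the other from db/+ mice, for which the labels name no treatment. db/db mice carry a mutated leptin receptor gene, Lepr, on both copies in every tissue and are known for obesity and diabetes, while db/+ mice carry it on 1 copy. Effects of the genotype and of the salt cannot be told apart. Hearts of 4 male mice per genotype were digested, filtered to deplete cardiomyocytes and depleted of CD45-positive leukocytes with magnetic beads, and the labels do not state whether hearts were pooled.

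IRG and GBP proteins are large GTPases that cells make on exposure to interferon-gamma and, for many of them, to type I interferons. They gather on the membranes of vacuoles that hold intracellular microbes and help to break those vacuoles open. Regulatory IRG proteins (Igtp, Irgm1 and Irgm2) sit on the membranes of the cell itself and keep effector IRG proteins (Iigp1 and Tgtp2) inactive there, and the autophagy proteins that conjugate ATG8 are needed for both families to reach their targets. Interferons act through receptors and JAK kinases on promoter elements of their target genes, of which the gamma-activated site (GAS) and the interferon-stimulated response element (ISRE) are the best known.

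Each library was made with a 10x 3' kit, which counts 1 tag per captured molecule as a unique molecular identifier (UMI). There were 4751 barcodes with 40974634 UMIs in the db/db and salt library and 5676 barcodes with 44935235 UMIs in the db/+ library. After filtering, 4094 and 4884 barcodes (droplets taken as cells) were left in the db/db and salt and the db/+ library, with a median of 7772 and 7048 UMIs. The libraries shared 7 barcode sequences. With 1 library per group there was no replicate and no test, and all intervals are exact Poisson (counts) or Clopper-Pearson (shares) 95% intervals that cover counting error only. Lepr, the mutated gene, was read at 25.1 CPM (counts per 1000000 UMIs of the class) in db/db and salt fibroblasts and 29.3 CPM in db/+ fibroblasts, and 3' tags do not read the db mutation, so Lepr does not check the labels.

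Barcodes were put into classes by the number of marker genes with a UMI. Endothelial barcodes, with at least 4 of 7 markers such as Pecam1, Cdh5 and Cldn5, numbered 2533 in db/db and salt and 3028 in db/+, or 61.9% and 62.0% of those kept. Among them 1392 and 1464 were capillary, 337 and 379 arterial, 356 and 484 venous and 107 and 133 angiogenic, again with db/db and salt before db/+, and 341 and 568 reached no subtype. Fibroblasts numbered 1052 in db/db and salt and 1156 in db/+, endocardial barcodes 50 and 71, lymphatic 28 and 24, and mural barcodes (pericytes and smooth muscle) 53 and 61. A further 154 barcodes in db/db and salt and 214 in db/+ passed the marker limits of both endothelial and mural cells, and they were kept apart as a mixed class. Fibroblast markers summed to 76.6 CPM in db/db and salt and 44.6 CPM in db/+ endothelial barcodes, against 28270 and 26831 CPM in fibroblasts. Erythroid markers in endothelial barcodes came to 2597 CPM in db/db and salt and 3186 CPM in db/+, with 5 of 5 genes above 0, and 7 leukocyte markers to 2.48 and 3.50 CPM, and their part in the results was not tested. By subtype the erythroid markers came to 3256 CPM in db/db and salt and 1148 CPM in db/+ venous barcodes, 1515 and 3663 CPM in capillary, 1651 and 3944 CPM in arterial and 280 and 3212 CPM in angiogenic ones, so they were higher in db/db and salt in venous barcodes and lower in the other 3 subtypes. T and NK cell markers, those of the cells that make most interferon-gamma, were at 0.108 and 0.488 CPM in endothelial barcodes, with a UMI of 2 of 7 genes in each library. Ifng itself had 0 UMIs in the kept barcodes of either library, with a total of 0 UMIs over all db/db and salt barcodes and 1 UMI over all db/+ barcodes.

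The genes lie in clusters of related genes (GRCm38, GENCODE M21). Irgm1 (chr11:48861968-48871683, minus strand) and Tgtp2 (chr11:49057194-49064206, minus strand) share a stretch of chromosome 11 with Tgtp1, and Igtp (chr11:58199556-58207591, plus strand) and Irgm2 (chr11:58199618-58222782, plus strand) overlap in the annotation further along it. Gbp7 (chr3:142530342-142550149), Gbp3 (chr3:142560026-142573209) and Gbp2 (chr3:142620602-142638008), all on the plus strand, follow each other on chromosome 3. Gbp4 (chr5:105115767-105139586) and Gbp6 (chr5:105270702-105293698) lie on the minus strand of chromosome 5, where Gbp4 overlaps Gbp8 and Gbp9. In the last 500 bases of the annotated transcripts, where 3' tags fall, 100% of 90-base words of Tgtp2 also occurred in Tgtp1 and 65.5% of those of Gbp6 in Gbp10 or Gm43302. The share was 8.22% for Gbp4, 0.45% for Gbp3 and 0% for the other 6, so levels of Tgtp2 and Gbp6 are uncertain by themselves.

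Promoters are shown because the interferon response elements stand close to the start of each. The RefSeq promoter table (GRCm38.p6, 250 bases before to 50 bases after the start) matched 7 of the 10 genes, all but Iigp1, Gbp4 and Gbp6. The ISRE core, GAAA with 2 bases of any kind and a second GAAA, searched on both strands, was found in 7 of the 7, and in 3.44% of the 32851 promoters of the same length. The GAS TTCNNNGAA, which reads the same on both strands, was found in 4 (Igtp, Irgm2, Tgtp2 and Gbp7), against 8.30% of all promoters, and both motifs together in those 4, against 0.454%. Gbp3 has a second entry, which held neither. Capitals mark the motifs in the 6 sequences below, each written 5′ to 3′ along the gene.
Igtp, chr11:58199306-58199605, plus strand: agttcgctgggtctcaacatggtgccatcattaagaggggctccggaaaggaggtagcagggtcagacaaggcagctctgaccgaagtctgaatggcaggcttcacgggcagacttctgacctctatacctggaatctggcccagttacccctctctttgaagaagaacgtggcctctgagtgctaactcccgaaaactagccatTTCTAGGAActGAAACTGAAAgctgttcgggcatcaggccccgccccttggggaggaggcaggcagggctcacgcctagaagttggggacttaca
Irgm2, chr11:58214727-58215026, plus strand: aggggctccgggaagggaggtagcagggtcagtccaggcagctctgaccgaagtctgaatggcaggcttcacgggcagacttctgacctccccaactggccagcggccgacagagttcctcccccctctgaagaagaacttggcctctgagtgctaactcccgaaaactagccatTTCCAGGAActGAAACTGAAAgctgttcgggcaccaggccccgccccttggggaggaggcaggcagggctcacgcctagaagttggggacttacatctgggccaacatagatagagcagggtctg
Tgtp2, chr11:49064163-49064462, minus strand: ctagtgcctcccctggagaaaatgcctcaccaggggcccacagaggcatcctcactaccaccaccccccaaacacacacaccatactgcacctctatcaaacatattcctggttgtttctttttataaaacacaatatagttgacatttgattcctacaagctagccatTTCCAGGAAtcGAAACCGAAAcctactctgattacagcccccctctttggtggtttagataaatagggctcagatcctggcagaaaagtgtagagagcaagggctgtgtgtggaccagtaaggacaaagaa
Irgm1, chr11:48871371-48871670, minus strand: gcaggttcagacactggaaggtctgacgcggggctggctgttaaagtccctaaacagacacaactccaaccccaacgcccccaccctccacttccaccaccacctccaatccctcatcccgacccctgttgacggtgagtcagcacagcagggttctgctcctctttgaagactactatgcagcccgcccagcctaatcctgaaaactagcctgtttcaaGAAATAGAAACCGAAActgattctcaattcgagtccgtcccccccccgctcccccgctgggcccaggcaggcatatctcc
Gbp2, chr3:142620413-142620712, plus strand: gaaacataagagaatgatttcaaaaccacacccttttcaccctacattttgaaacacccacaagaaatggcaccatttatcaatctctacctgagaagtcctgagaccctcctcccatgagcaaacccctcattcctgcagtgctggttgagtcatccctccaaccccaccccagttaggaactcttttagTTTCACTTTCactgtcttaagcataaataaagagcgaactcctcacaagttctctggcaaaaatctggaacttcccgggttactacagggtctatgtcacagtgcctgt
Gbp7, chr3:142530086-142530385, plus strand: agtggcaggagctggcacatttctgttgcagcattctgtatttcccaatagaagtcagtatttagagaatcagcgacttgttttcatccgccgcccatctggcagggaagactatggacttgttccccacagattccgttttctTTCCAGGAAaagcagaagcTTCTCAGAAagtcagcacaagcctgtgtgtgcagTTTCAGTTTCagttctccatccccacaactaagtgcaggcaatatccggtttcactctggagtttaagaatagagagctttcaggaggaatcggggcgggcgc
In Igtp, Irgm2 and Tgtp2 the GAS and the ISRE core stood on the same strand with 2 bases between them. That joint pattern, looked for on both strands after it was seen here, occurred in 5 of the 32851 promoters, and the genes were Igtp, Irgm2, Tgtp2, Tgtp1 and Gm12185, which are IRG genes with related sequences. In Igtp the ISRE core ended 25 bases before the start, in Irgm2 55 bases and in Tgtp2 61 bases. Irgm1 held 2 overlapping ISRE cores between 30 and 15 bases before the start. Gbp2 held 1 on the opposite strand that ended 50 bases before the start. Gbp7 held 1 on the opposite strand that ended 44 bases before the start, with 2 GAS further upstream. A match describes the letters and not a bound site.

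In endothelial barcodes the 10 genes together took 696 CPM (95% interval 684 to 708) in db/db and salt and 2474 CPM (2453 to 2494) in db/+, a ratio of 0.281 (0.276 to 0.287). For single genes 10 CPM was added to each level before the db/db and salt value was divided by the db/+ one, and log2 of that quotient, which understates differences of low genes, is called the log2 ratio. On that scale the median of the 10 was -1.69, with a range of -2.21 to -0.91, while the median of all 8258 genes with a mean of at least 10 CPM was 0.05. At least 1.5-fold lower values in db/db and salt were found for 10 of the 10, in a class where 1.6% of all genes were that much lower and 0.521% that much higher, and since this contrast chose the genes nothing is read from the count. The Poisson interval in db/db and salt lay below that in db/+ for each of the 10 in endothelial barcodes, as it did for 12.0% of all genes there. From such sums fewer cells with a transcript and less of it per cell cannot be told apart.

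Among the effector IRG genes, Iigp1 (chr18:60376027-60392634, plus strand) had 134 CPM (129 to 139) in the db/db and salt library and 654 CPM (643 to 664) in the db/+ library, a log2 ratio of -2.21. Tgtp2, the other effector, had 10.6 CPM (9.20 to 12.2) in db/db and salt and 57.8 CPM (54.7 to 61.0) in db/+, a log2 ratio of -1.72. Tgtp1 was counted separately, although it holds all 90-base words of the last 500 bases of Tgtp2. The labels do not state how tags of shared sequence were assigned. Added to Tgtp1, the level was 16.4 CPM in db/db and salt and 88.2 CPM in db/+, with a log2 ratio of -1.90.

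The regulatory IRG genes differed among themselves. Igtp had 27.4 CPM (25.1 to 29.9) in db/db and salt and 160 CPM (155 to 166) in db/+, a CPM ratio of 0.171. Irgm2, its neighbour in the genome, had 26.9 CPM (24.6 to 29.4) in db/db and salt and 93.6 CPM (89.6 to 97.6) in db/+, a ratio of 0.287. Irgm1 had 60.6 CPM (57.1 to 64.3) in db/db and salt and 150 CPM (145 to 155) in db/+, a ratio of 0.404. The counting intervals of these 3 ratios did not overlap (0.156 to 0.188 for Igtp, 0.260 to 0.317 for Irgm2 and 0.378 to 0.433 for Irgm1).

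Of the GBP genes, Gbp7 had 212 CPM (205 to 219) in db/db and salt and 528 CPM (519 to 538) in db/+, a log2 ratio of -1.28. Gbp2 had 94.4 CPM (90.1 to 99.0) in db/db and salt and 321 CPM (313 to 328) in db/+, a log2 ratio of -1.66. Gbp4 had 67.8 CPM in db/db and salt and 257 CPM in db/+, a log2 ratio of -1.78. Gbp3 had 57.6 CPM in db/db and salt and 234 CPM in db/+, a log2 ratio of -1.85. Gbp6 was low, at 5.13 CPM (4.15 to 6.27) in db/db and salt and 18.5 CPM (16.7 to 20.3) in db/+, with a log2 ratio of -0.91 and a plain CPM ratio of 0.278. Added to Gbp10, with which it shares 3' sequence, the level was 5.24 CPM in db/db and salt and 25.5 CPM in db/+, with a log2 ratio of -1.22. Gbp7 and Irgm1 thus had the ratios nearest to 1, at 0.401 and 0.404, and Igtp, Tgtp2 and Iigp1 those farthest from it, at 0.171, 0.184 and 0.205.

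**Figure D1:**
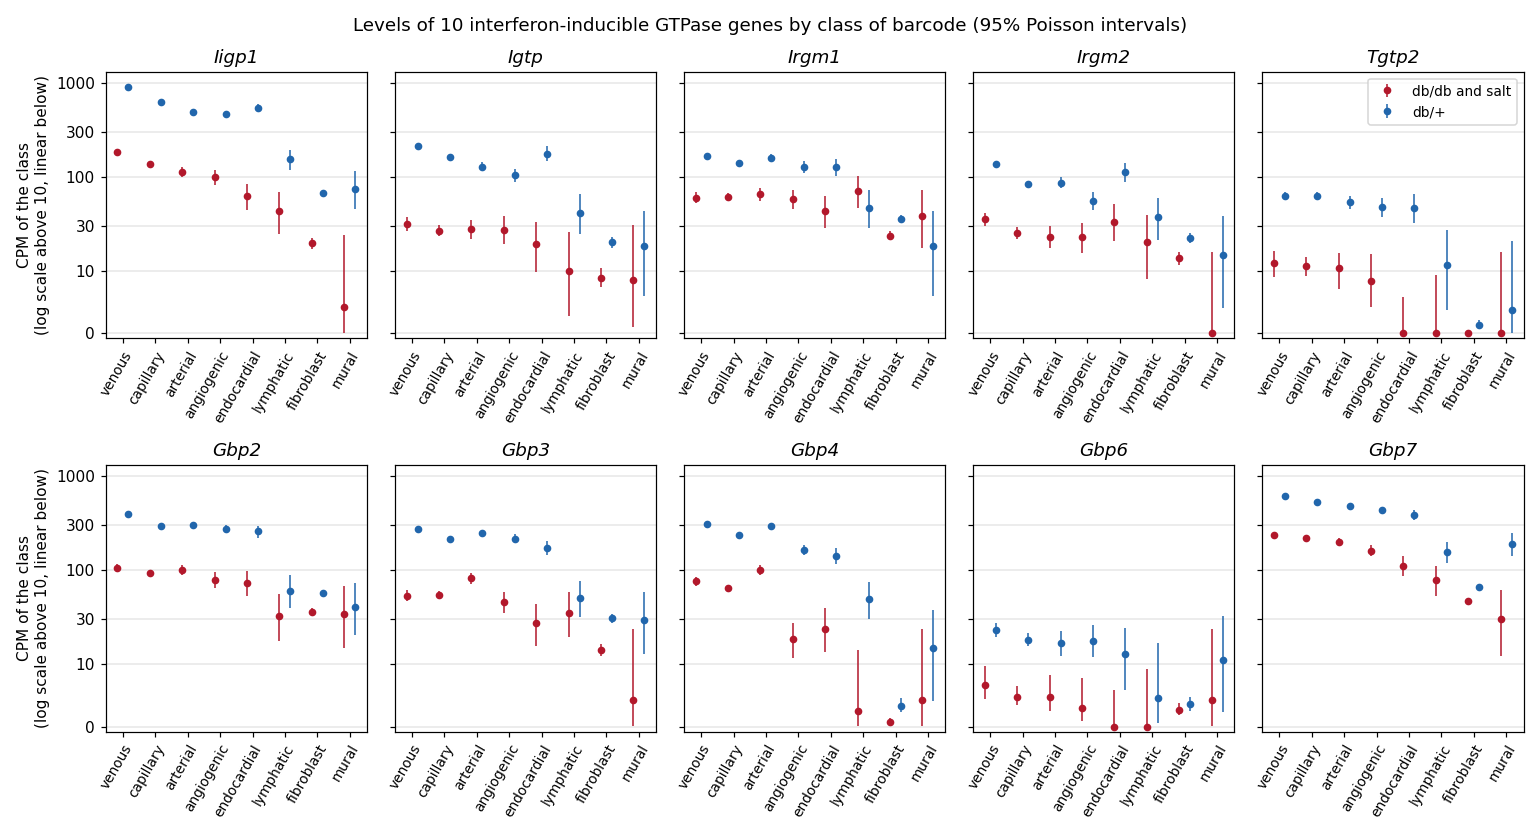
Levels of the 10 genes by class of barcode, in CPM of the class on an axis that is linear below 10 and logarithmic above, with db/db and salt in red left of db/+ in blue and bars for exact Poisson 95% intervals. In venous, capillary, arterial and angiogenic barcodes the db/db and salt point of each gene lies below the db/+ point, and in mural barcodes most intervals are wide, since only 30 and 112 UMIs of the 10 genes were counted there.

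The make-up of the GTPase UMIs followed from these unequal ratios. IRG genes gave 37.3% of the UMIs of the 10 genes in db/db and salt endothelial barcodes and 45.1% in db/+ ones. Iigp1 gave 19.2% in db/db and salt and 26.4% in db/+, while Gbp7 gave 30.4% in db/db and salt and 21.3% in db/+. The share of Iigp1 was thus lower and that of Gbp7 higher in db/db and salt, and so it was in capillary, venous and arterial barcodes. In venous barcodes Iigp1 gave 23.0% in db/db and salt and 28.9% in db/+, and Gbp7 29.4% and 20.1%.

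Every endothelial subtype showed lower sums in db/db and salt. Venous barcodes had 796 CPM (768 to 823) of the 10 genes in db/db and salt and 3072 CPM (3027 to 3118) in db/+, the highest of the subtypes in each library. Capillary barcodes had 694 CPM in db/db and salt and 2365 CPM in db/+, arterial ones 722 CPM and 2244 CPM, and angiogenic ones 520 CPM and 1894 CPM. Endothelial barcodes of no subtype had 605 CPM in db/db and salt and 2244 CPM in db/+. The order of subtypes from venous down was therefore not the same in both libraries for capillary and arterial barcodes, whose intervals overlapped in db/db and salt (676 to 712 for capillary, 690 to 756 for arterial) and not in db/+ (2333 to 2397 for capillary, 2187 to 2302 for arterial). Ratios of the sums were 0.259 in venous, 0.293 in capillary, 0.322 in arterial, 0.275 in angiogenic and 0.270 in the remaining barcodes. All of the 10 genes were at least 1.5-fold lower in db/db and salt in each of these sets, where 2.14% of all genes in venous, 1.36% in capillary, 1.45% in arterial, 2.27% in angiogenic and 2.71% in the remaining barcodes were.

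The endothelial barcodes of the libraries were also spread unevenly over expression clusters. Leiden clusters were made over all kept barcodes without the 10 genes, the interferon lists and the class II genes, and the endothelial barcodes within them were compared after the other values had been seen. Cluster 3 held 32 endothelial barcodes of db/db and salt (1.26% of the class) and 779 of db/+ (25.7%). Iigp1, Igtp and Tgtp2, not used to form it, were among its 6 leading genes, beside Ubd and Zbp1, interferon-induced genes that were left in. Dbp, a gene of none of the interferon lists, was the remaining leading gene. Leading genes were ranked on the summed counts of both libraries, and cluster 3 was mostly of db/+ barcodes. Genes chosen as higher in db/+ are raised in such a ranking by the mix of libraries alone, so nothing is read from their place. The 10 genes took 2453 CPM (2232 to 2689) in db/db and salt and 4625 CPM (4570 to 4680) in db/+ in cluster 3, a ratio of 0.530, the highest sums of the 10 clusters with at least 20 endothelial barcodes of each library. Clusters 0, 2 and 5, in which Car4, Esm1 and Cyp26b1 were highest above the rest, held a larger share of the class in db/db and salt, with 25.0% there and 16.0% in db/+ for cluster 0, 23.5% and 12.8% for cluster 2 and 17.1% and 6.51% for cluster 5.

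Within clusters the libraries differed by less in these 3 than over the whole class. The 10 genes took 647 CPM (615 to 679) in db/db and salt and 964 CPM (921 to 1009) in db/+ in cluster 0, 735 CPM and 1137 CPM in cluster 2 and 686 CPM and 1117 CPM in cluster 5, or ratios of 0.671, 0.646 and 0.614, against 0.281 over the class. At least 1.5-fold lower were 2 of the 10 genes in cluster 0, 3 in cluster 2, 6 in cluster 5 and 8 in cluster 3, where 0.821%, 0.942%, 0.93% and 10.1% of all genes were. Cluster 7, led by Prss23 and Vwf, genes known from venous endothelium, had 897 CPM (856 to 939) in db/db and salt and 3385 CPM (3313 to 3459) in db/+, a ratio of 0.265, and held 9.32% of the class in db/db and salt and 9.48% in db/+. Over all 10 clusters the ratio ran between 0.125 (cluster 12, led by Mki67, with 38 and 116 barcodes) and 0.671 (cluster 0). With cluster 3 left out of both libraries the sums were 679 CPM (667 to 691) in db/db and salt and 1705 CPM (1686 to 1725) in db/+, a ratio of 0.398, the median log2 ratio was -1.16, and 9 of 10 genes were at least 1.5-fold lower, where 1.64% of all genes were. Interferon-induced genes such as Ubd and Zbp1 were left in when the clusters were made. These values therefore cannot divide the ratio over the class between a difference within clusters and an unequal spread of barcodes.

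Some genes had a subtype pattern of their own. Irgm2 had 35.1 CPM (29.6 to 41.4) in db/db and salt and 136 CPM (126 to 146) in db/+ venous barcodes, against 25.2 CPM and 83.0 CPM in capillary ones. Igtp had 31.4 CPM (26.2 to 37.3) in db/db and salt and 211 CPM (199 to 223) in db/+ venous barcodes, a log2 ratio of -2.42, and 27.6 CPM and 128 CPM in arterial ones, a log2 ratio of -1.87. Gbp4 was low in angiogenic barcodes, with 18.2 CPM (11.7 to 27.1) in db/db and salt and 163 CPM (144 to 184) in db/+, against 99.9 CPM (88.0 to 113) and 290 CPM (270 to 312) in arterial ones. The arterial ratio of Gbp4 was 0.344 (0.297 to 0.397) and the angiogenic ratio 0.111 (0.0702 to 0.170), and the intervals did not overlap, although the difference between subtypes has no replicate to test it. Irgm1 lay between 57.6 and 65.2 CPM across these 4 subtypes in db/db and salt. In db/+ it ran from 126 CPM (110 to 145) in angiogenic to 166 CPM (155 to 176) in venous barcodes, and these intervals did not overlap.

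Endocardial barcodes, which line the heart chambers, had 391 CPM (344 to 443) of the 10 genes in db/db and salt and 1958 CPM (1856 to 2063) in db/+, a ratio of 0.200 (0.174 to 0.229). The class rests on 50 and 71 barcodes. Iigp1 had 39 UMIs (61.7 CPM, 43.9 to 84.3) in db/db and salt and 380 UMIs (534 CPM, 482 to 591) in db/+, a log2 ratio of -2.92. Igtp had 12 UMIs or 19.0 CPM in db/db and salt and 125 UMIs or 176 CPM in db/+, a log2 ratio of -2.68. Tgtp2 had 0 UMIs in db/db and salt and 33 UMIs in db/+ endocardial barcodes, at least 9.78-fold lower when 3 UMIs in the class are taken as the floor. Across the 10 genes the median log2 ratio was -1.93 beside 0.05 over all genes, and 10 of 10 were at least 1.5-fold lower in a class where 5.81% of all genes were. Fibroblast markers summed to 2440 CPM in db/db and salt and 1914 CPM in db/+ endocardial barcodes, and their part in the result was not tested.

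Lymphatic barcodes had 290 CPM (240 to 348) in db/db and salt and 606 CPM (535 to 684) in db/+, a ratio of 0.479 (0.381 to 0.598). Of the 10 genes 7 were at least 1.5-fold lower, where 9.86% of all genes were. The Poisson interval in db/db and salt lay below that in db/+ for 3 of the 10 (Iigp1, Gbp4 and Gbp7), where it did for 1.64% of all genes, and Tgtp2 rests on 0 UMIs in db/db and salt and 5 in db/+. Gbp4 had 1 UMI in db/db and salt and 21 UMIs in db/+. Irgm1 had the opposite order, with 28 UMIs (70.0 CPM, 46.5 to 101) in db/db and salt and 20 UMIs (46.1 CPM, 28.2 to 71.2) in db/+, and these intervals overlapped.

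**Figure D2:**
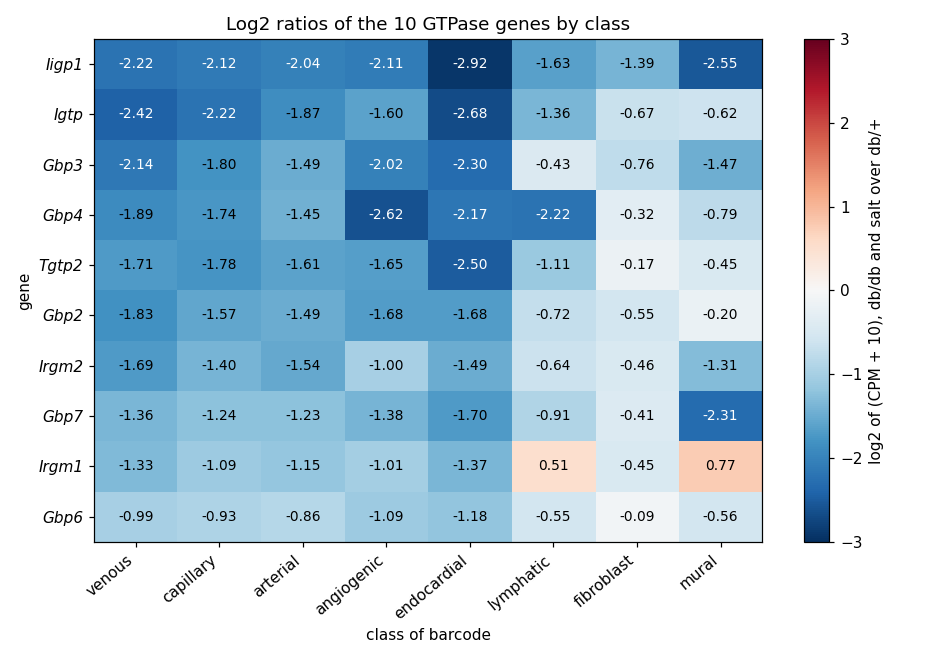
Log2 ratio, db/db and salt over db/+ after adding 10 CPM, of each gene (down the side) in each class of barcode (across). Blue marks lower values in db/db and salt, and the 2 red cells are Irgm1 in lymphatic (0.51) and mural barcodes (0.77).

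In fibroblasts the levels and the differences were both smaller. The 10 genes took 165 CPM (158 to 172) in db/db and salt and 306 CPM (296 to 316) in db/+, a ratio of 0.538 (0.510 to 0.568). That interval did not overlap the one of endothelial barcodes (0.276 to 0.287), though the difference between the cell types has no replicate to test it. Iigp1 had 19.5 CPM (17.1 to 22.02) in db/db and salt and 67.2 CPM (62.5 to 72.1) in db/+ fibroblasts, a log2 ratio of -1.39. Gbp7 had 46.3 CPM (42.7 to 50.2) in db/db and salt and 65.1 CPM (60.5 to 69.9) in db/+, a log2 ratio of -0.41. Gbp2 had 35.6 CPM in db/db and salt and 57.0 CPM in db/+, and Irgm1 had 23.5 CPM and 35.7 CPM. The interval in db/db and salt lay below that in db/+ for 9 of the 10 genes, where it did for 8.56% of all genes, and the intervals overlapped for Gbp6. The median log2 ratio was -0.46 beside 0.03 over all genes. At least 1.5-fold lower in db/db and salt were 3 of 10 (Iigp1, Gbp3 and Igtp), where 0.961% of all genes were, and this count moved to 8 with a pseudocount of 1 CPM and to 1 with 50 CPM. Only 7 of the 10 reached the mean of 10 CPM in fibroblasts that the shares of all genes ask for.

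Gbp4, Tgtp2 and Gbp6 had few UMIs in fibroblasts, and of these Gbp6 was low in endothelial barcodes as well. Gbp6 had 35 UMIs (2.69 CPM) in db/db and salt and 40 UMIs (3.51 CPM) in db/+ fibroblasts. Gbp4 had 9 UMIs (0.693 CPM, 0.317 to 1.32) in db/db and salt and 38 UMIs (3.34 CPM, 2.36 to 4.58) in db/+ fibroblasts, against 67.8 CPM and 257 CPM in endothelial barcodes. Tgtp2 had 1 UMI in db/db and salt and 15 UMIs (1.32 CPM, 0.737 to 2.17) in db/+ fibroblasts. Gbp4 made up 0.421% of the UMIs of the 10 genes in db/db and salt fibroblasts and 1.09% in db/+ ones, against 9.73% and 10.4% in endothelial barcodes. Irgm2 made up 8.18% and 7.29% in fibroblasts, against 3.86% and 3.78% in endothelial barcodes, with db/db and salt before db/+ in each pair.

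Mural barcodes held 30 UMIs of the 10 genes in db/db and salt and 112 in db/+, or 128 CPM (86.2 to 182) and 412 CPM (340 to 496). Gbp7 had 7 UMIs in db/db and salt and 51 in db/+, and Iigp1 1 and 20, and for these 2 of the 10 genes the interval in db/db and salt lay below that in db/+, where it did for 1.42% of all genes. Of the 10 genes 6 were at least 1.5-fold lower and 1 higher, Irgm1, with 9 UMIs in db/db and salt and 5 in db/+, in a class where 15.9% of all genes were that much lower and 14.6% higher. Barcodes with both endothelial and mural markers had 521 CPM in db/db and salt and 1996 CPM in db/+, with 10 of 10 genes at least 1.5-fold lower, where 1.86% of all genes were. T and NK cell markers in db/db and salt pericytes came to 80.0 CPM and in db/+ pericytes to 14.1 CPM, from Trac (12 and 3 UMIs) with the other 6 at 0 UMIs.

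Counts were also taken per barcode. Each barcode was thinned to 1500 UMIs so that depth was equal, which left 2466 endothelial barcodes in db/db and salt and 2896 in db/+. A thinned barcode held a mean of 1.08 UMIs of the 10 genes in db/db and salt and 3.59 in db/+. No UMI of the 10 was found in 45.4% (43.4 to 47.4%) of db/db and salt barcodes and in 23.1% (21.5 to 24.6%) of db/+ ones. UMIs of 3 or more of the genes were found in 8.07% (7.02 to 9.22%) in db/db and salt and in 36.6% (34.8 to 38.4%) in db/+, and of 5 or more in 0.770% (0.464 to 1.20%) and 16.5% (15.2 to 17.9%). Both the share of barcodes with a UMI of these genes and the number in a barcode were thus lower in db/db and salt. At so few UMIs per barcode a lower level in every cell would also lower the share with a UMI, so these shares do not separate it from fewer cells with a transcript. Without thinning, 42.8% of db/db and salt and 69.1% of db/+ barcodes had 3 or more, at a median depth of 5478 and 5439 UMIs.

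The spread between db/+ endothelial barcodes was wide. At 12 or more UMIs of the 10 genes stood 199 thinned barcodes, or 6.87%, beside 668 barcodes with none. In db/db and salt 6 barcodes, or 0.243%, had 12 or more and 1119 had none. The tenth of barcodes with the most UMIs held 42.5% of all UMIs of the 10 genes in db/db and salt and 36.8% in db/+. Of the subtypes, venous barcodes had UMIs of 3 or more genes in 9.83% (6.94 to 13.4%) in db/db and salt and 46.3% (41.7 to 50.8%) in db/+, and capillary ones in 6.88% (5.59 to 8.35%) and 32.5% (30.1 to 35.0%). In fibroblasts the shares were 0.958% in db/db and salt and 2.97% in db/+.

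Shares of thinned endothelial barcodes with a UMI of a given gene showed the same order of libraries. Iigp1 was found in 13.5% (12.2 to 15.0%) in db/db and salt and in 39.7% (37.9 to 41.5%) in db/+, and without thinning in 34.2% and 60.1%. Gbp4 was found in 9.57% in db/db and salt and in 26.1% in db/+ endothelial barcodes. In fibroblasts thinned to the same 1500 UMIs, from a median of 11979 UMIs in db/db and salt and 9576 in db/+, Gbp4 was found in 0.0958% (0.00243 to 0.533%) and 0.262% (0.0540 to 0.763%).

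**Figure D3:**
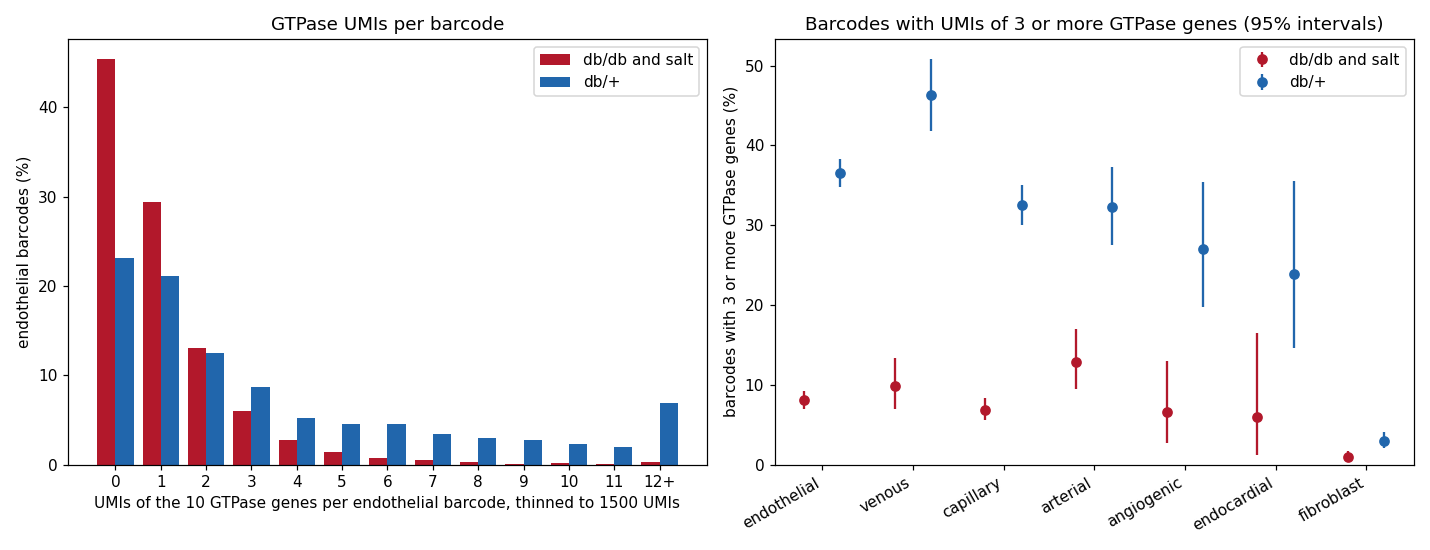
Left, the share of endothelial barcodes (%) by the number of UMIs of the 10 genes after thinning to 1500 UMIs, with db/db and salt in red left of db/+ in blue and 12 or more in 1 bar. Right, the share of barcodes (%) with UMIs of 3 or more of the genes by class, with Clopper-Pearson 95% intervals, which is highest in venous db/+ barcodes at 46.3%.

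Within the db/+ endothelium the genes were found together in the same barcodes. For each of the 45 pairs the number of thinned barcodes with both genes was divided by the number that their separate shares would give. The ratio was over 1 for 45 of 45 pairs, with a median of 1.68 and a range of 1.39 (Irgm1 with Gbp7) to 3.24 (Irgm2 with Gbp6). Iigp1 was found in 1150 of the 2896 barcodes and Igtp in 492, and 369 held both against 195 expected, a ratio of 1.89 and the highest phi coefficient of the 45, 0.326. Iigp1 and Gbp4 were together in 497 barcodes against 301 expected, and Gbp2 and Gbp7 in 560 against 391. The ratio of 3.24 for Irgm2 with Gbp6 rests on 22 barcodes against 6.79 expected.

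For comparison, the same ratio was taken between each gene and the 4486 other genes found in at least 5% of these barcodes. The median lay between 0.968 (Gbp6) and 0.999 (Gbp4), and 95% of the other genes lay below 1.15 for Iigp1, 1.23 for Igtp and 1.13 for Gbp7. The median ratio with the other 9 GTPase genes was 1.65 for Iigp1, 1.91 for Igtp and 1.44 for Gbp7. Pairs within the IRG family had a median of 1.79, pairs within the GBP family 1.67 and pairs across the families 1.59, so co-detection crossed the families and the chromosomes on which they lie. It was also present within subtypes, with medians of 1.83 in capillary, 1.64 in arterial, 1.44 in venous and 1.69 in angiogenic db/+ barcodes. Leiden cluster 3 held 25.7% of the db/+ endothelial barcodes. The GTPase genes together took 4625 CPM there and 1705 CPM in the remaining db/+ endothelial barcodes. No co-detection ratio was taken within or outside that cluster, so the part of this uneven level in the ratios was not tested. All these ratios are descriptions of barcodes of 1 library, which share its free RNA.

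In the db/db and salt endothelium 44 of 45 pairs had a ratio over 1, with a median of 1.70, but fewer barcodes held any pair and the median phi coefficient was 0.0449, against 0.159 in db/+. Iigp1 with Igtp was found in 25 barcodes against 14.6 expected. Iigp1 with Tgtp2 was found in 23 against 6.91 expected, the highest ratio there at 3.33. Irgm2 with Gbp2 was the pair under 1, with 12 barcodes against 12.7 expected. The median ratio with the other 9 was below the value under which 95% of 4644 other genes lay for Gbp2 (1.272 against 1.277) and Gbp6 (1.70 against 1.98), and above it for the other 8, such as Iigp1 (1.76 against 1.28). An expected number of at least 5 barcodes was reached by 31 pairs in db/db and salt and by 44 in db/+.

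**Figure D4:**
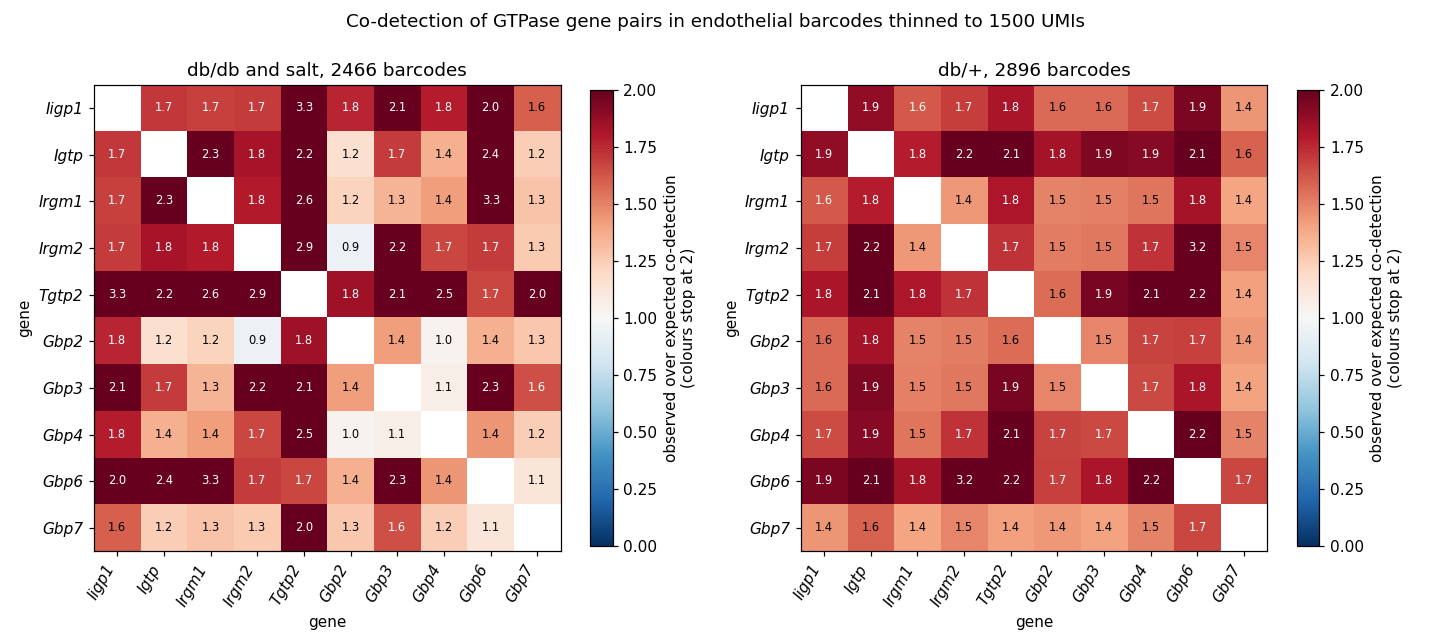
Observed over expected number of endothelial barcodes with UMIs of both genes of a pair, after thinning to 1500 UMIs, with db/db and salt (2466 barcodes) on the left and db/+ (2896 barcodes) on the right; genes run along both axes. Values over 1 are red, and the pale blue cells are Irgm2 with Gbp2 in db/db and salt, at 0.942, the pair under 1.

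The genes whose UMIs followed the summed GTPase UMIs most closely across db/+ endothelial barcodes were genes of antigen presentation and interferon response. Over 2896 thinned barcodes and 4495 genes, on a log scale, Pearson's r was 0.469 for B2m, 0.460 for H2-D1 and 0.445 for H2-K1, which form MHC class I molecules. Psmb8, an immunoproteasome subunit, followed with 0.392, Ifitm3 with 0.372, Wars with 0.358, the peptide transporter gene Tap1 with 0.345, H2-Q7, whose tags may be split with other class I genes, with 0.340, and AW112010 with 0.337. The median over all other genes was -0.00406, and the lowest values were -0.225 for Txnip and -0.208 for Hspa8. In the db/db and salt endothelium, over 2466 barcodes, the genes at the top were Ifit1 (0.242), Ifit3 (0.214), Ifit2 (0.200) and Isg15 (0.191), which are targets of type I interferon, and no MHC class I gene was among the first 10. Of the 10 GTPase genes, Iigp1 followed the other 9 most closely in each library, with r of 0.280 in db/db and salt and 0.574 in db/+. Each r comes from barcodes of 1 library, and the part of the lower UMI numbers in the lower r of db/db and salt was not tested.

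Barcodes with a UMI of an MHC class II gene (Cd74, H2-Aa, H2-Ab1 or H2-Eb1), targets of interferon-gamma in endothelium, were looked at separately. They were 18 of 2466 thinned endothelial barcodes in db/db and salt (0.730%, 0.433 to 1.15%) and 313 of 2896 in db/+ (10.8%, 9.70 to 11.996%), while in fibroblasts they were 0.862% in db/db and salt and 0.873% in db/+. The db/db and salt share over all endothelial barcodes was not above that of fibroblasts, but it was not even: 13 of the 18 barcodes were arterial, 3.89% of the arterial ones, and 2 capillary, 0.146% of those. Of the 155 class II UMIs in db/db and salt endothelial barcodes 108 were in arterial ones, at 42.7 CPM against 1.21 CPM in capillary ones. Of the 18 db/db and salt barcodes 0 held 3 or more of the GTPase genes (up to 18.5%), with a mean of 0.611 GTPase UMIs, and of the 2448 without a class II UMI 8.13% (7.08 to 9.28%), with a mean of 1.08. The db/db and salt interval of up to 18.5%, from 18 mostly arterial barcodes, covers the 8.13%, so no order is read from it. Of the 313 db/+ barcodes 73.2% (67.9 to 78.0%) held 3 or more of the GTPase genes, with a mean of 6.86 UMIs, and of the 2583 without a class II UMI 32.1% (30.3 to 34.0%), with a mean of 3.19. Leukocyte markers had 1 UMI of 7 genes in all in these 313 barcodes, and T and NK cell markers likewise 1 UMI. Barcodes with several leukocyte markers had been left out of the endothelial class, and leukocytes had been depleted with beads. Low values were thus largely set in advance, and nothing is read from them. Their median depth before thinning was 7196 UMIs, against 5514 in the others. In venous db/+ barcodes 128 of 482 had a class II UMI, and 85.9% of those held 3 or more GTPase genes. Of the venous barcodes without one 31.9% did, which was near the 30.5% of capillary barcodes without one. In arterial db/+ barcodes 61 had a class II UMI, and 45.9% (33.1 to 59.2%) of those held 3 or more. Of the 314 arterial barcodes without one 29.6% (24.6 to 35.0%) did, and these intervals overlapped.

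Among db/+ endothelial barcodes with no class II UMI the median co-detection ratio of the 45 pairs was 1.72, beside 1.68 over all of them. In a further setting, barcodes with a class II UMI were left out of both libraries. They were called on unthinned counts and so are not the same set as the thinned barcodes with a class II UMI above. The 10 genes then had a median log2 ratio of -1.40, and 10 of 10 were at least 1.5-fold lower, where 1.06% of all genes were. Nothing is read from this count, since this contrast chose the genes.

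Barcodes with UMIs of 3 or more of 18 type I interferon targets, such as Isg15 and Ifit1, were 369 of 2466 (15.0%) in db/db and salt and 884 of 2896 (30.5%) in db/+. Among them 26.3% (21.9 to 31.1%) in db/db and salt and 55.2% (51.9 to 58.5%) in db/+ held 3 or more GTPase genes. Among the remaining barcodes the shares were 4.86% (3.98 to 5.87%) in db/db and salt and 28.4% (26.4 to 30.4%) in db/+. The share with 3 or more GTPase genes was thus lower in db/db and salt on each side of this split. Since the contrast of the libraries chose the genes, this order repeats the choice and nothing is read from it.

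Other genes of the families and of the pathway were taken from lists, and counted where their mean was at least 10 CPM in endothelial barcodes. The lists were chosen with earlier results of these data known, so nothing is read from their counts. Of 18 other family genes 16 were measured and 7 reached that level, and the median log2 ratio was -1.04. By 1.5-fold or more 5 of the 7 were lower in db/db and salt and 0 were higher. Of all genes at that level 1.6% were that much lower and 0.521% that much higher. Gbp5, a GBP that takes part in inflammasome activation, had 37.8 CPM (35.1 to 40.8) in db/db and salt and 129 CPM (124 to 134) in db/+. Gm4951 had 1.30 CPM and 26.0 CPM, Gvin1, a very large interferon-inducible GTPase, 12.3 CPM and 35.7 CPM, and Gbp9 92.4 CPM and 163 CPM. 9930111J21Rik2 had 190 CPM (183 to 196) in db/db and salt and 210 CPM (204 to 216) in db/+, a log2 ratio of -0.14, and Irgq, a more distant relative of the IRG genes, had 11.4 CPM and 11.0 CPM, a log2 ratio of 0.02.

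The 12 interferon signalling genes at that level had a median of -0.24, with 3 lower by that factor and 0 higher. The shares over all genes were 1.6% lower and 0.521% higher. Nlrc5, the activator of MHC class I genes, had 3.67 CPM in db/db and salt and 20.1 CPM in db/+ (log2 ratio -1.14), and Stat2 had 49.5 CPM and 80.4 CPM (-0.60). Irf1, a factor that binds ISRE, had 104 CPM in db/db and salt and 151 CPM in db/+ (-0.50), and Irf9 66.6 CPM and 93.8 CPM (-0.44). The receptor and kinase genes were close in the libraries, with Ifngr1 at 281 CPM in db/db and salt and 311 CPM in db/+, Ifngr2 at 58.5 CPM and 60.9 CPM, Jak1 at 236 CPM and 228 CPM and Jak2 at 45.6 CPM and 47.0 CPM.

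The 8 other interferon-gamma targets at that level had a median of -1.67, and 7 were lower by that factor and 0 higher. For this and the next 2 lists the same shares over all genes hold, 1.6% lower and 0.521% higher. Cd74 had 2.27 CPM in db/db and salt and 197 CPM in db/+, a log2 ratio of -4.07. The chemokine Cxcl9 had 59.3 CPM in db/db and salt and 283 CPM in db/+ (-2.08), Cxcl10 2.75 CPM and 48.0 CPM (-2.18), Tap1 33.7 CPM and 154 CPM (-1.91) and Psmb9 122 CPM and 347 CPM (-1.44). The 15 type I targets had a median of -0.84, with 10 lower and 0 higher, among them Isg15 with 78.2 CPM in db/db and salt and 235 CPM in db/+ (-1.47). The 10 ATG8 conjugation genes had a median of 0.11 with 0 of 10 past 1.5-fold in either direction, and their values lay between -0.05 (Atg3) and 0.21 (Map1lc3a). In fibroblasts Isg15 had 14.6 CPM in db/db and salt and 73.4 CPM in db/+, a log2 ratio of -1.76.

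**Figure D5:**
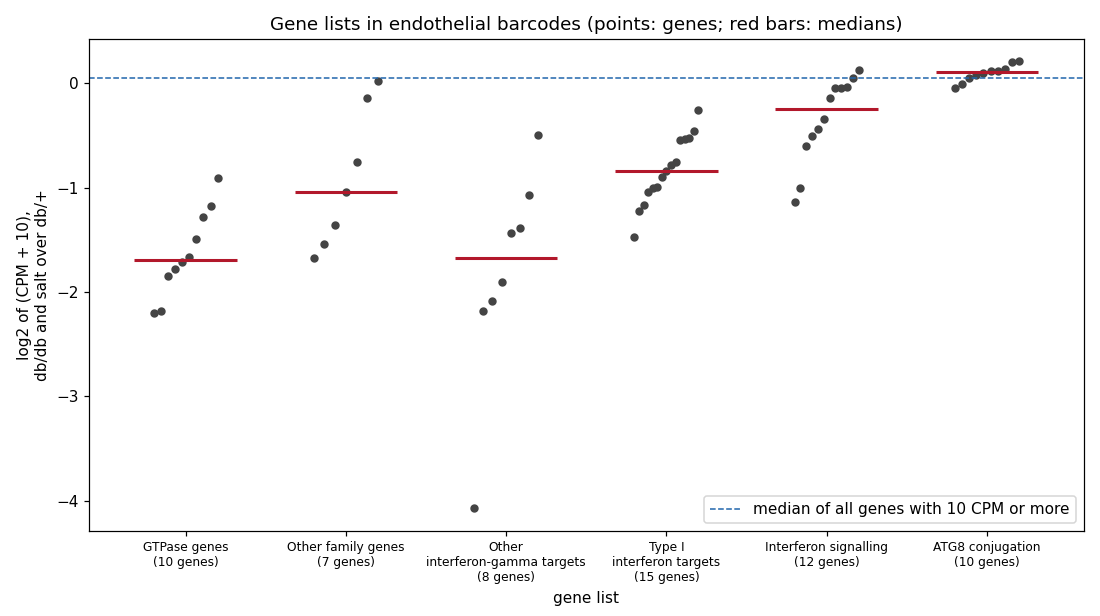
Log2 ratio in endothelial barcodes, db/db and salt over db/+ after adding 10 CPM, for the 10 GTPase genes and for 5 lists, with a point per gene of at least 10 CPM on average, red bars for medians and a dashed line for the median of all genes. The GTPase genes have a median of -1.69, other interferon-gamma targets -1.67, type I targets -0.84 and ATG8 conjugation genes 0.11.

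The ISRE core was also counted in the promoters of these lists. It was found in 6 of 9 promoters of other family genes, in 8 of 14 of type I targets, in 2 of 11 of interferon signalling genes, in 1 of 8 of the other interferon-gamma targets (Cxcl10) and in 0 of 7 of ATG8 conjugation genes. These are the listed genes with a promoter entry, which are not the same sets as the genes of at least 10 CPM above.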

How the data were processed

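Per the labels, non-muscle heart cells were measured with the 10x 3' v3.1 kit. The authors deposited matrices of unscaled UMI counts, which per the file headers Cell Ranger 6.0.2 wrote. Seurat and the build GRCm38 (mm10) are listed in the submitters' processing notes, and the labels give no other setting. The members and all lists were chosen with earlier results of these data known.

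Barcodes with at most 10% mitochondrial UMIs and at least 500 genes were kept: 544 of 4751 in db/db and salt and 609 of 5676 in db/+ exceeded the mitochondrial limit, and a further 63 and 119 had too few genes. Scrublet (scanpy 1.11.5, expected rate 0.8% per 1000 cells) removed 50 of 4144 and 64 of 4948 as doublets. Classes came from marker counts per barcode (at least 4 of 7 endothelial, 5 of 7 fibroblast, 4 of 7 pericyte or 4 of 6 smooth muscle, 3 of 5 endocardial, 3 of 4 lymphatic, 4 of 5 capillary, 4 of 7 arterial, 3 of 6 venous or angiogenic markers), thresholds set after the data were seen. At the endothelial limit stood 101 barcodes in db/db and salt and 171 in db/+, and 52 and 81 fell 1 marker short. Barcodes with several cardiomyocyte, leukocyte or Schwann markers, 44 in db/db and salt and 67 in db/+, were left out of all these classes. Counts were summed per class as CPM. Shares of all genes cover genes with a mean of at least 10 CPM in the class, while counts of the members use all 10. That level was reached by 9 members in endocardial, mixed and no-subtype barcodes, 8 in lymphatic, 7 in fibroblast and 6 in mural ones. Genes named beside the members had the largest absolute log2 ratio in their list (up to 5) or the highest r (10 genes). A gene that this rule also names is not reported here. Other genes named were chosen after their values were seen: Irgq, 9930111J21Rik2, Ifngr1, Ifngr2, Jak1, Jak2, Atg3, Txnip, Hspa8, the genes highest in db/db and salt and those leading a Leiden cluster (scanpy). TMM scaling used edgeR 4.0.16. The calculations were tested on simulated data.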

Additional observations from a re-analysis of the deposited data

How the results depend on the processing

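No paired analysis was possible because each group has 1 library, and no library can be left out for the same reason. No result changed sign under the settings tried. In endothelial barcodes the median log2 ratio of the 10 genes was -1.69 as reported, -1.84 with a pseudocount of 1 CPM, -1.25 with 50 CPM, -1.55 with barcodes thinned to 1500 UMIs and, in settings chosen after seeing the data, -1.40 without barcodes with a class II UMI and -1.16 without Leiden cluster 3. The number at least 1.5-fold lower there was 9 or 10 under the settings that kept all 10 genes. In fibroblasts the median of -0.46 became -0.88 with 1 CPM and -0.24 with 50 CPM, and the count of 3 became 8 with 1 CPM and 1 with 50 CPM. That count became 5 with classes from Leiden clusters made without the listed interferon genes. In mural barcodes the median of -0.71 became -1.90 with 1 CPM, and with the mixed endothelial and mural barcodes added, again after seeing the data, -1.70. In endocardial barcodes the median of -1.93 became -2.58 with 1 CPM, -1.35 with 50 CPM and -1.40 with thinned barcodes. The median co-detection ratio of 1.68 in db/+ became 1.41 without thinning. The pseudocount moves values by its construction, and for the other settings the cause was not tested. Without Tgtp2 and Gbp6, left out after seeing the data, the endothelial median was -1.72 and 8 of 8 were lower. TMM scaling, a mitochondrial limit of 20%, kept doublets and removal of proliferating barcodes moved none of the medians by more than their counting error. The TMM factors give a shift of -0.0905 on the log2 scale in endothelial barcodes before 10 CPM is added. With 10 CPM added, the log2 ratio went from -0.91 to -0.96 for Gbp6, a low gene, and from -2.21 to -2.29 for Iigp1. The 30 and 112 UMIs in mural barcodes limit that class.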
